A study of Mus musculus with 6 samples.

Results

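Transcripts of 10 genes that are widely used as readouts of ERK signalling were followed in cultured mouse hepatic stellate cells given forskolin. They are the EGR genes Egr1, Egr2 and Egr3, the Sprouty genes Spry1, Spry2 and Spry4, the SPRED genes Spred1 and Spred2, and the ETS factor genes Etv4 and Etv5. The members were found by gene symbol in the deposited table, where all 10 had a row among 24940 rows. Hepatic stellate cells are the pericytes of the liver sinusoid, which store vitamin A and turn into matrix-producing myofibroblasts in liver injury. In the forskolin group, wild-type primary cells from female C57BL/6JBomTac mice had been in culture for 2 days when 5 µM forskolin, a direct activator of adenylyl cyclase, was added to the medium for 3 h. The DMSO group was made of the same kind of cells and received the solvent alone for the same time. Each group held 3 RNA sequencing libraries, called A, B and C. The sources used here give neither the ages of the mice nor whether a letter marks a separate isolation. A p-value here therefore reflects the spread among the libraries alone, and that spread could be technical.

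Growth factor receptors activate RAS, which starts the kinase cascade from RAF through MEK to ERK. ERK phosphorylates ternary complex factors that sit with the serum response factor SRF on CArG boxes, and immediate-early genes such as Egr1 are switched on within minutes. EGR proteins are zinc finger transcription factors that bind GC-rich DNA. Sprouty and SPRED proteins are feedback inhibitors that are themselves induced by the pathway: Sproutys act on the steps between receptor and RAF, and SPREDs bring the RAS inactivator neurofibromin to the membrane. Etv4 and Etv5 belong to the PEA3 group of ETS factors, late targets of fibroblast growth factor and ERK signalling. Protein kinase A, the main effector of the cAMP that forskolin raises, can both inhibit and support RAF signalling, depending on the cell type, and it also activates CREB, which binds cAMP response elements in some of the same promoters.

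Total counts ran from 2770628 to 10607997 in forskolin libraries and from 3025990 to 9454832 in DMSO libraries. The C library was the shallowest of each group and stood apart. Log2 CPM (CPM being counts scaled to library size) correlated across genes at 0.980 between forskolin A and B and at 0.972 between DMSO A and B, against 0.925 to 0.930 for pairs of 1 group that included a C library. Summed counts of 11 stellate cell markers were 2851 to 2972 CPM in forskolin libraries and 2887 to 3065 CPM in DMSO libraries. Of these 11, 1 was called, Hgf, the hepatocyte growth factor gene, at 76.2 ± 8.10 CPM with forskolin and 23.0 ± 5.69 CPM with DMSO (SD, n = 3 each, log2 fold change 1.71 ± 0.20, edgeR adjusted p = 9.09e-04). The summed markers of hepatocytes, macrophages, endothelial cells, cholangiocytes and portal fibroblasts or mesothelium were each at most 44.7 CPM with forskolin and 22.6 CPM with DMSO, with Apoc3, Krt7, Thy1, Upk3b and Gpm6a at 0 in all 6 libraries. No marker of those cell types was called in the edgeR fit of all 6 libraries after the filter on low counts; Spp1 was with no filter (1.22, adjusted p = 0.00661). Of 12 cAMP and CREB target genes used as a check of the treatment, 10 rose, led by Nr4a1, Nr4a3, Sik1 and Crem.

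Egr1 fell with forskolin, and in the edgeR fit of all 6 libraries after the filter on low counts no other member was called. All 10 passed the filter on low counts, and in edgeR's quasi-likelihood F test 1 was lower and 0 were higher at an adjusted p (Benjamini-Hochberg, over all tested genes) of 0.05. Among all 12233 tested genes, 2.8% were called, 2.22% higher and 0.572% lower. At an unadjusted p of 0.05, 1 member was higher (Spry4) and 1 lower (Egr1). DESeq2 and limma-voom also called Egr1 alone. The median log2 fold change was 0.22 over the members and 0.0050 over all tested genes. Without both C libraries, 4 members were called, with Egr2, Egr3 and Spry4 higher and Egr1 lower, where 9.76% of all tested genes were called, 5.86% higher and 3.9% lower. Limma-voom with sample quality weights, which lets noisier libraries count for less, called the same 4 in a fit that called 8.08% of all genes, 4.89% higher and 3.2% lower. With no filter on low counts 3 members were called, Egr3 and Spry4 higher and Egr1 lower, against 3.31% of all genes, 2.47% higher and 0.838% lower. The replicate groups did not overlap for 3 of the 10 members, Egr1 and Spred1 being lower and Etv5 higher with forskolin. Over all tested genes the groups did not overlap for 20.2%, with 9.47% lower and 10.7% higher.

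**Figure D1:**
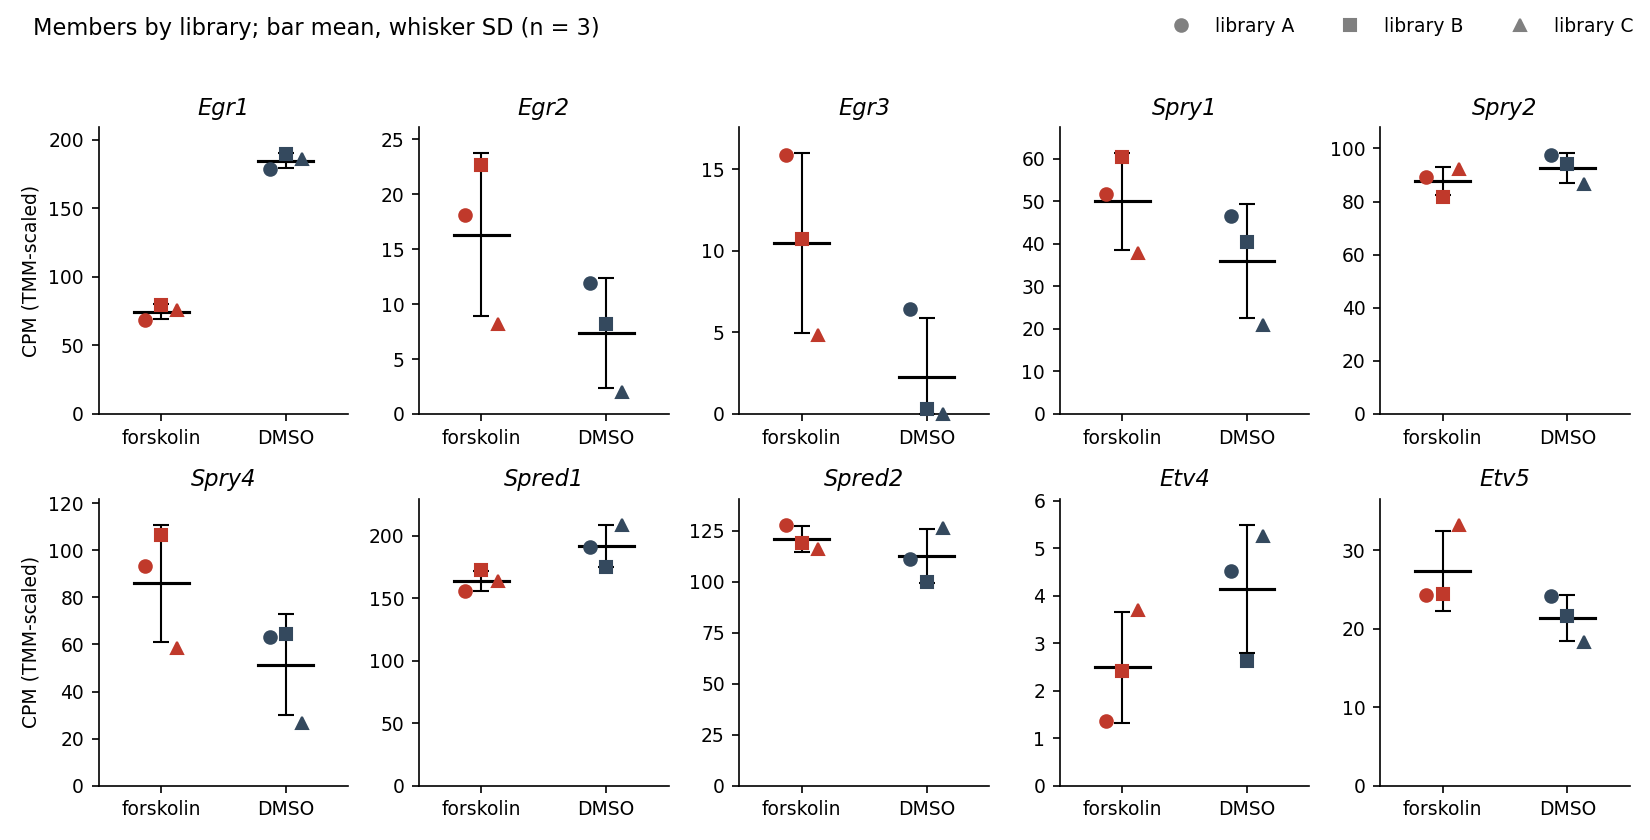
Expression of the 10 members in each library, as CPM on TMM-scaled library sizes, with forskolin left of DMSO. Points are single libraries, the horizontal bar is the mean and the whisker the SD (n = 3 per group, drawn no lower than 0). Egr1 is separated between the groups by a wide gap, while Egr2, Egr3, Spry1 and Spry4 are lowest in the C library of both groups.

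Egr1 had 68.6, 79.5 and 75.8 CPM in forskolin libraries A, B and C, against 179, 190 and 186 CPM in DMSO libraries A, B and C. All 3 forskolin libraries lay far below every DMSO library, and the groups were tight, with coefficients of variation of 7.40% with forskolin and 3.01% with DMSO. Egr1 averaged 74.6 ± 5.52 CPM with forskolin and 185 ± 5.56 CPM with DMSO (SD, n = 3 each), a level 2.48-fold lower with forskolin. The fitted log2 fold change was −1.31 ± 0.11 (SE; 95% interval −1.55 to −1.07, edgeR adjusted p = 8.9e-05). By p-value it was the third of the 70 genes called lower, and by size of change it was the 11th. The C libraries did not stand apart for this gene: without both of them the log2 change was −1.32 (adjusted p = 4.96e-09), and the call held under each of the 16 other settings tried, at −1.36 to −1.25. In bulk RNA, less Egr1 RNA per cell and fewer cells that express Egr1 cannot be told apart. Egr1 lies on mouse chromosome 18 from 34861207 to 34864956 on the plus strand (mm10), and no other GENCODE gene overlaps it.

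Egr2 (Krox-20) and Egr3 (Pilot) code for EGR proteins with closely related DNA-binding zinc fingers, and their values ran the other way from those of Egr1. In mm10, Egr2 lies on chromosome 10 from 67537869 to 67542188 and Egr3 on chromosome 14 from 70077445 to 70082613, both on the plus strand. Egr2 had 18.1, 22.7 and 8.16 CPM in forskolin libraries A, B and C, against 11.9, 8.20 and 2.03 CPM in DMSO libraries A, B and C. The forskolin C library lay below 2 of the DMSO libraries, so the groups overlapped. The log2 fold change of Egr2 was 1.11 ± 0.52 (95% interval −0.06 to 2.27, edgeR adjusted p = 0.447), which did not pass. Without both C libraries it was 1.03 ± 0.28 and passed (adjusted p = 0.0218), and limma-voom with sample quality weights also called it (1.14, adjusted p = 0.0479).

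Egr3 was the least abundant EGR gene. Its deposited counts were 152, 115.5 and 12.5 in forskolin libraries A, B and C, against 44, 3 and 0 in DMSO libraries A, B and C. These counts correspond to 15.8, 10.7 and 4.86 CPM with forskolin and 6.42, 0.304 and 0 CPM with DMSO, where 0 counts in DMSO C allow up to 1.02 CPM (3 counts, counting error only). Nearly all DMSO counts came from DMSO A, which lay above forskolin C, so the groups overlapped. With all 6 libraries the log2 fold change was 2.15 ± 0.99 (95% interval −0.05 to 4.36, edgeR adjusted p = 0.432). Without DMSO A it was 5.49 (adjusted p = 0.0235), a fitted value that depends on the prior count, since 3 DMSO counts then remain. It was 2.08 without both C libraries (adjusted p = 0.0468) and 2.16 with no filter on low counts (adjusted p = 0.00448). With sample quality weights it was 3.55 (adjusted p = 0.0307). The size of the Egr3 value thus moved with the library left out and with the tool.

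Per length of transcript, the EGR genes together stood at 32.5 ± 3.80 CPM per kb with forskolin and 63.3 ± 1.74 CPM per kb with DMSO (SD, n = 3 each). Egr1 made up 68.8%, 71.4% and 86.1% of that sum in forskolin libraries A, B and C, against 91.2%, 95.6% and 98.9% in DMSO libraries A, B and C. Its share was thus lower in every forskolin library than in any DMSO library. The share of Egr2 was 9.60% to 21.1% with forskolin and 1.12% to 6.28% with DMSO. That share depends on the level of Egr1 as well. The CPM of Egr2 itself overlapped between the groups and did not pass in the edgeR fit of all 6 libraries. Egr1 remained the most abundant EGR transcript per length in all 6 libraries. No test of the difference between genes was made.

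The Egr2 promoter is shown because it holds letters of both kinds of element named above, a CArG box and cAMP response element half-sites, just upstream of the transcript that was counted. RefSeq promoters (GRCm38.p6) were found for 6 of the 10 members, and the 250 bases before the start site were searched on both strands. Capitals mark the CArG box and the half-site letters TGACG, which read CGTCA on the other strand. The Egr2 stretch is chr10:67537619-67537868 and the Spred2 stretch is chr11:19924192-19924441, both on the plus strand and both ending at the base before the start of the transcript named in the deposited table. RefSeq lists 5 starts for Egr2, of which this is 1.
Egr2: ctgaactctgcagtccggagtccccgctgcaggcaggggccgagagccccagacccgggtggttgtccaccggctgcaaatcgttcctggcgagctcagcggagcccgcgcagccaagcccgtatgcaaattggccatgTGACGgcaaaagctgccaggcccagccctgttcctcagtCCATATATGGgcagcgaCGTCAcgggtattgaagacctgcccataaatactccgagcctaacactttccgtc
Spred2: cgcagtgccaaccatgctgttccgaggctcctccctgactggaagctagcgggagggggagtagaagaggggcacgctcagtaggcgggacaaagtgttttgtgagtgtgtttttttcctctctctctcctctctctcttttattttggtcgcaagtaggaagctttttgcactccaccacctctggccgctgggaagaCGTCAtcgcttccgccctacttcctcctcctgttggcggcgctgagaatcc

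The Egr2 stretch holds 1 CArG box, 72 to 63 bases before the start, between half-sites at 111 to 107 and 55 to 51 bases before it. The Spred2 stretch, shown beside it, holds 1 half-site 51 to 47 bases before the start and no CArG box. Neither Egr2 nor Spred2 was called in the edgeR fit of all libraries. The stretches of Spry1, Spry2, Spred1 and Etv5 held neither. Over all 32851 mouse promoters of the same length, 17.8% held the half-site and 1.47% a CArG box. The full response element TGACGTCA, which contains the half-site and occurs in 1.55% of promoters, was in none of the 6, and neither were the EGR letters GCGTGGGCG (0.536% of promoters) or the ETS letters CCGGAA (12% of promoters). A match is a run of letters and was not tested as a binding site, and the absence of one says only that these letters are not in this window.

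Among the Sprouty genes, Spry4 had the largest fitted change, and none passed in that edgeR fit. Spry4 had 93.3, 106 and 58.3 CPM in forskolin libraries A, B and C, against 63.2, 64.6 and 26.6 CPM in DMSO libraries A, B and C. The A and B libraries with forskolin lay above every DMSO library, but forskolin C lay below DMSO A and B, so the groups overlapped. For Spry4 the log2 fold change was 0.73 ± 0.31 (95% interval 0.05 to 1.41, edgeR adjusted p = 0.364). It was 0.64 ± 0.11 without both C libraries (adjusted p = 5.91e-04), and 0.70 with sample quality weights (adjusted p = 0.0298). With no filter it was 0.73 (adjusted p = 0.00105). The sign and size of the Spry4 value were alike in these fits, and whether it passed was not. With single libraries left out, its size moved more and it did not pass. It then ran from 0.45 without DMSO C (edgeR adjusted p = 0.529) to 0.92 without DMSO B (adjusted p = 0.46). The gene lies on chromosome 18 from 38586265 to 38601268 on the minus strand (mm10), Spry1 on chromosome 3 from 37639947 to 37644599 on the plus strand, and Spry2 on chromosome 14 from 105891947 to 105896819 on the minus strand.

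Spry1 had 51.7, 60.4 and 37.9 CPM in forskolin libraries A, B and C, against 46.7, 40.4 and 20.8 CPM in DMSO libraries A, B and C. The order of the libraries was like that of Spry4, with the C library lowest in each group. Spry1 had a log2 fold change of 0.46 ± 0.27 (95% interval −0.15 to 1.07, edgeR adjusted p = 0.597), and Spry1 passed in none of the 16 other settings, the lowest adjusted p being 0.141, without both C libraries. An annotated transcript on the opposite strand, Gm42922, shares 710 exon bases with Spry1, and because strand was not recorded, reads from that stretch cannot be assigned to either gene.

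Spry2, the Sprouty best known for binding the ubiquitin ligase CBL after phosphorylation, was the most abundant of the 3 per length and the most even. It had 89.2, 81.9 and 92.3 CPM in forskolin libraries A, B and C, against 97.4, 94.1 and 86.6 CPM in DMSO libraries A, B and C. The groups overlapped, and neither C library stood apart. The log2 fold change of −0.09 ± 0.12 had a 95% interval of −0.35 to 0.18 (edgeR adjusted p = 0.881), narrower than that of any EGR gene but Egr1. Summed per length, the Sproutys stood at 81.0 ± 7.70 CPM per kb with forskolin and 70.2 ± 12.6 CPM per kb with DMSO (SD, n = 3 each). Spry2 made up 45.3% to 61.3% of that sum with forskolin and 59.0% to 74.6% with DMSO, ranges that overlap.

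**Figure D2:**
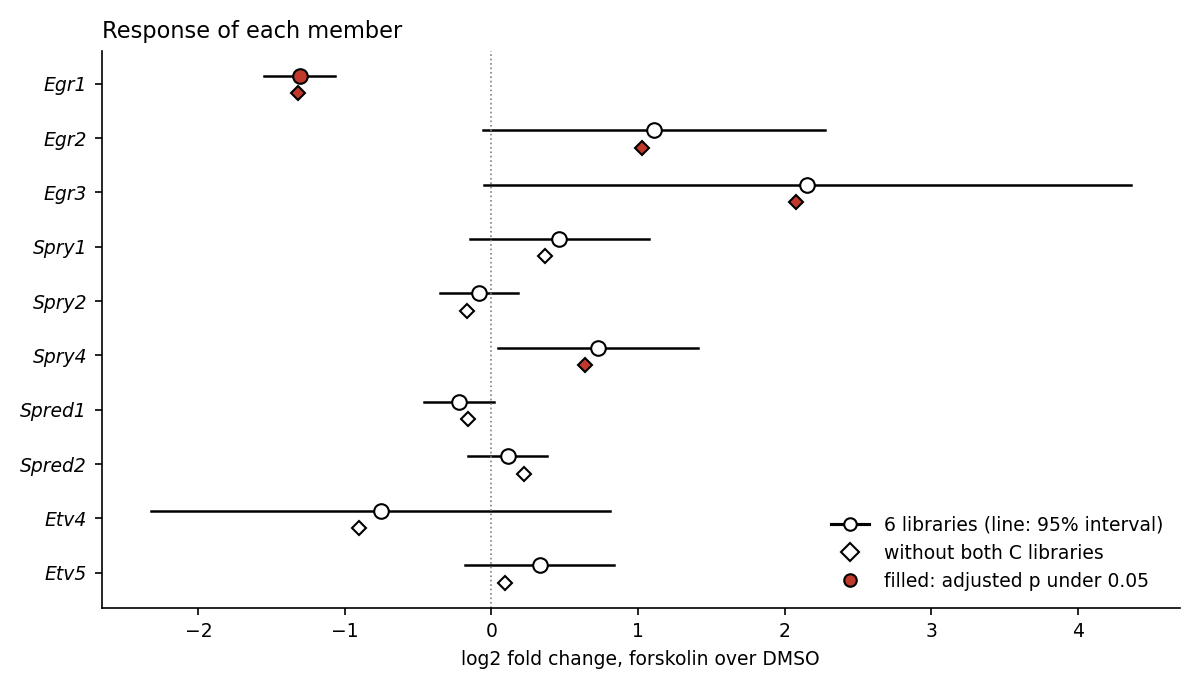
Log2 fold change of each member, forskolin over DMSO, from edgeR with all 6 libraries (circles, with 95% intervals) and without both C libraries (diamonds). Filled symbols passed an adjusted p of 0.05. Egr1 is filled in both fits, at −1.31 and −1.32, while Egr2, Egr3 and Spry4 are filled in the fit without the C libraries and open in the other.

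The SPRED genes were abundant, and neither passed the test. Spred1 lies on chromosome 2 from 117121071 to 117182277 and Spred2 on chromosome 11 from 19924442 to 20022597, both on the plus strand (mm10). Spred1, whose human counterpart is mutated in Legius syndrome, had 156, 172 and 164 CPM in forskolin libraries A, B and C, against 191, 175 and 209 CPM in DMSO libraries A, B and C. Every forskolin library lay below every DMSO library, though forskolin B and DMSO B lay close together. Spred1 had a log2 fold change of −0.22 ± 0.11 (95% interval −0.46 to 0.02, edgeR adjusted p = 0.459), and none of the 16 other settings called it. Spred2 had 128, 119 and 116 CPM in forskolin libraries A, B and C, against 111, 99.97 and 127 CPM in DMSO libraries A, B and C. These ranges overlapped, and the log2 fold change was 0.11 ± 0.12 (95% interval −0.16 to 0.38, adjusted p = 0.849). Per length, Spred1 made up 35.6% to 39.7% of the SPRED sum with forskolin and 42.8% to 44.3% with DMSO. That shift in share rests on values of which neither gene passed the test.

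The PEA3 group genes were among the lowest members per length, and neither passed the test. Both lie on the minus strand in mm10, Etv4 on chromosome 11 from 101769748 to 101785310 and Etv5 on chromosome 16 from 22381313 to 22439570. Etv5 had 24.3, 24.4 and 33.2 CPM in forskolin libraries A, B and C, against 24.2, 21.6 and 18.3 CPM in DMSO libraries A, B and C. The groups did not overlap, but forskolin A and DMSO A were nearly equal, and the largest gap was between the C libraries. Its log2 fold change was 0.33 ± 0.23 (95% interval −0.18 to 0.84, edgeR adjusted p = 0.675) and 0.09 without both C libraries (adjusted p = 0.87). Etv4 had 13, 26 and 9.5 counts in forskolin libraries A, B and C, against 31, 26 and 15.5 counts in DMSO libraries A, B and C. As CPM these are 1.35, 2.42 and 3.69 with forskolin and 4.52, 2.63 and 5.25 with DMSO, ranges that overlap. Etv4 had a log2 fold change of −0.76 ± 0.71 (edgeR adjusted p = 0.8). Its 95% interval of −2.33 to 0.81 was wide and left the direction of any change undecided.

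**Figure D3:**
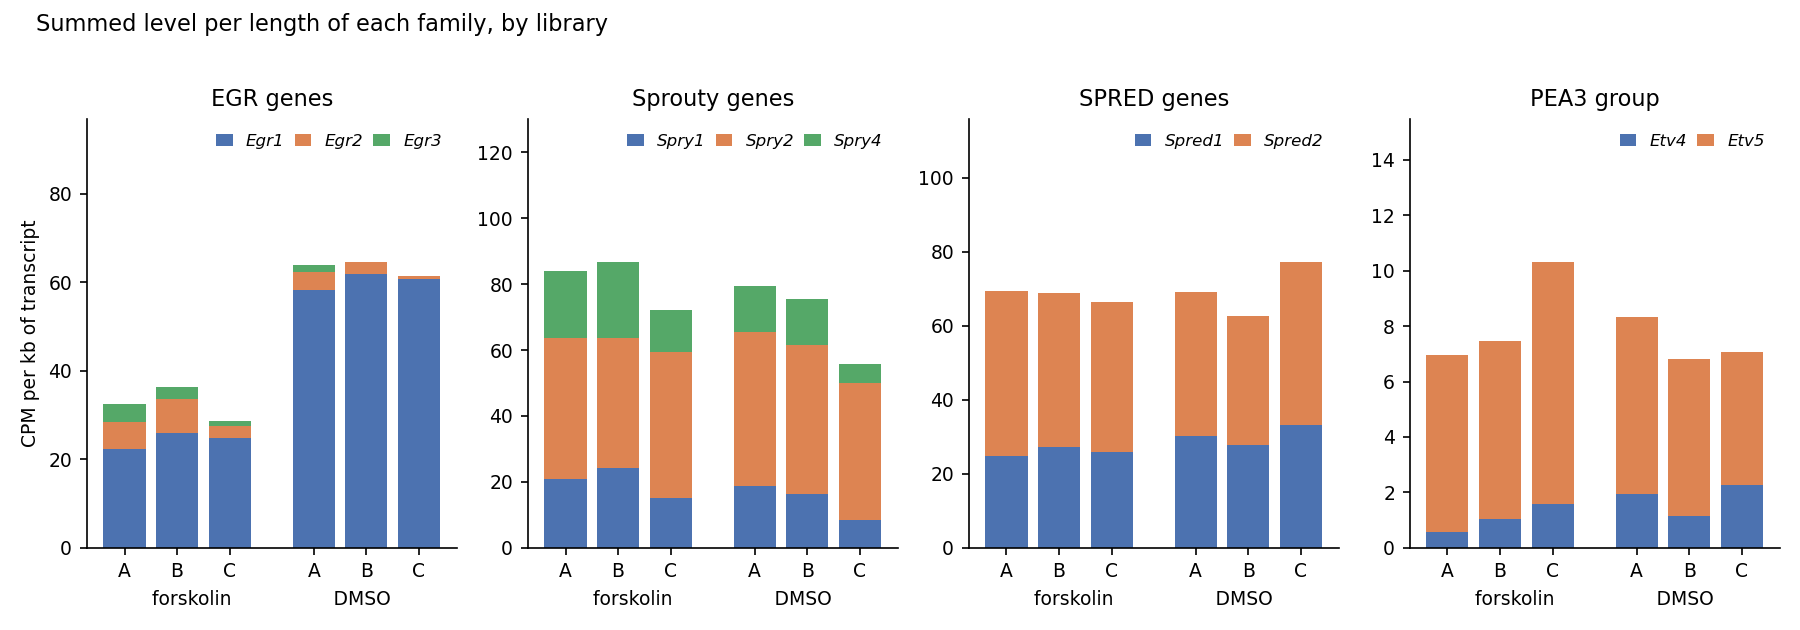
Level per length of each family by library, as CPM per kb of transcript, with forskolin libraries A, B and C left of DMSO libraries A, B and C. Stacked colours are the members of a family. The EGR sum is 32.5 CPM per kb on average with forskolin and 63.3 with DMSO, with Egr1 the largest part in every library.

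The order of the members by level per length differed between the groups mainly through Egr1. Within a group the order also rests on the deposited transcript length of each gene. For Spred2 this length was 2864 bases, where GENCODE exons cover 4619, and for Spry2 it was 2083 against 2087. With forskolin, Spred2 and Spry2 led at 42.2 ± 2.20 and 42.1 ± 2.57 CPM per kb (SD, n = 3), a difference within their spread. Spred1 followed at 26.0 ± 1.30 CPM per kb and Egr1 at 24.3 ± 1.80, again within their spread, then Spry1 at 20.1 ± 4.56 and Spry4 at 18.7 ± 5.42. The EGR and ETV genes other than Egr1 lay well below these feedback inhibitors. Etv5 stood at 7.18 ± 1.34 and Egr2 at 5.51 ± 2.51 CPM per kb, and Egr3 and Etv4 closed the order at 2.67 ± 1.40 and 1.07 ± 0.505. With DMSO, Egr1 led at 60.2 ± 1.81 CPM per kb, ahead of Spry2 at 44.5 ± 2.66 and Spred2 at 39.3 ± 4.66. Spred1 came next at 30.4 ± 2.66, followed by Spry1 at 14.5 ± 5.42 and Spry4 at 11.2 ± 4.70, which did not differ beyond their spread. The low end held the same genes as with forskolin. They were Etv5 at 5.61 ± 0.778, Egr2 at 2.49 ± 1.68, Etv4 at 1.78 ± 0.583 and Egr3 at 0.572 ± 0.924 CPM per kb. Among all tested genes, the level of Egr1 per length was above 67.4% of genes with forskolin and above 87.8% with DMSO.

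The C libraries touched the members unequally. In Egr2, Egr3, Spry1 and Spry4 the C library was the lowest of both groups, which was so for 25.6% of all tested genes. In those 4 genes the forskolin C value was nonetheless above the DMSO C value. Egr1, Spry2, the SPRED genes and the ETV genes showed no such pattern. Of the marker genes, Spp1, counted here as a cholangiocyte marker, had 34.1, 26.6 and 6.996 CPM in forskolin libraries A, B and C, against 15.7, 10.7 and 2.03 CPM in DMSO libraries A, B and C. Without both C libraries Spp1 and the cholangiocyte marker Sox9 were called higher, 2 of the 3 tested markers of that type. Of the 11 stellate cell markers, 2 were called higher in that fit, Hgf and Des (0.43, edgeR adjusted p = 0.0206). Of the 6 cholangiocyte markers listed, 1 had no count in any library. Whether the Spp1 and Sox9 counts came from cholangiocytes was not tested. Nor was any part that depth or other cell types have in the values of the members.

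The other genes of the pathway were read in the same fit. Of 20 other ERK output genes tested, 7 rose, 2 fell and 11 did not pass, with a median log2 fold change of 0.21. Those that rose included Il11, an interleukin-6 family cytokine (3.70 ± 0.24), and the AP-1 subunit gene Fos (2.28 ± 0.20), each a log2 fold change with its SE. Fosb, another AP-1 subunit gene, was at 141 ± 31.1 CPM with forskolin and 35.7 ± 4.33 CPM with DMSO (SD, n = 3 each, edgeR adjusted p = 1.64e-04). Fosb was also among the cAMP and CREB target genes used as a check of the treatment, so these lists are not separate. Fos, like Egr1 a textbook SRF and ERK target, averaged 86.7 ± 3.61 CPM with forskolin and 17.9 ± 4.59 CPM with DMSO (SD, n = 3 each), with no overlap (adjusted p = 1.45e-04). The 2 that fell were Myc and Dusp6. Myc, the growth-promoting transcription factor gene, was at 127 ± 7.003 CPM with forskolin and 295 ± 35.3 CPM with DMSO (log2 fold change −1.21 ± 0.12, adjusted p = 2.51e-04). Dusp6, the phosphatase that inactivates ERK in the cytoplasm, was at 81.9 ± 2.78 CPM with forskolin and 157 ± 27.2 CPM with DMSO (−0.94 ± 0.14, adjusted p = 0.00382); it is named after its value was seen. Phosphatase genes Dusp4 and Dusp5, also named after their values were seen, stood at 0.05 ± 0.11 (adjusted p = 0.931) and 0.27 ± 0.10 (adjusted p = 0.287). Without both C libraries edgeR called Dusp5 higher (0.31, adjusted p = 0.0254). Errfi1 of the same list, named after its values were seen, was then called lower (−0.24, adjusted p = 0.0424). In that fit 8 of the 20 genes were higher and 3 lower, against 5.86% and 3.9% of all tested genes. Without DMSO A the call on Junb was lost (adjusted p = 0.0626), and without DMSO B those on Junb (0.0719) and Ier3 (0.054).

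**Figure D4:**
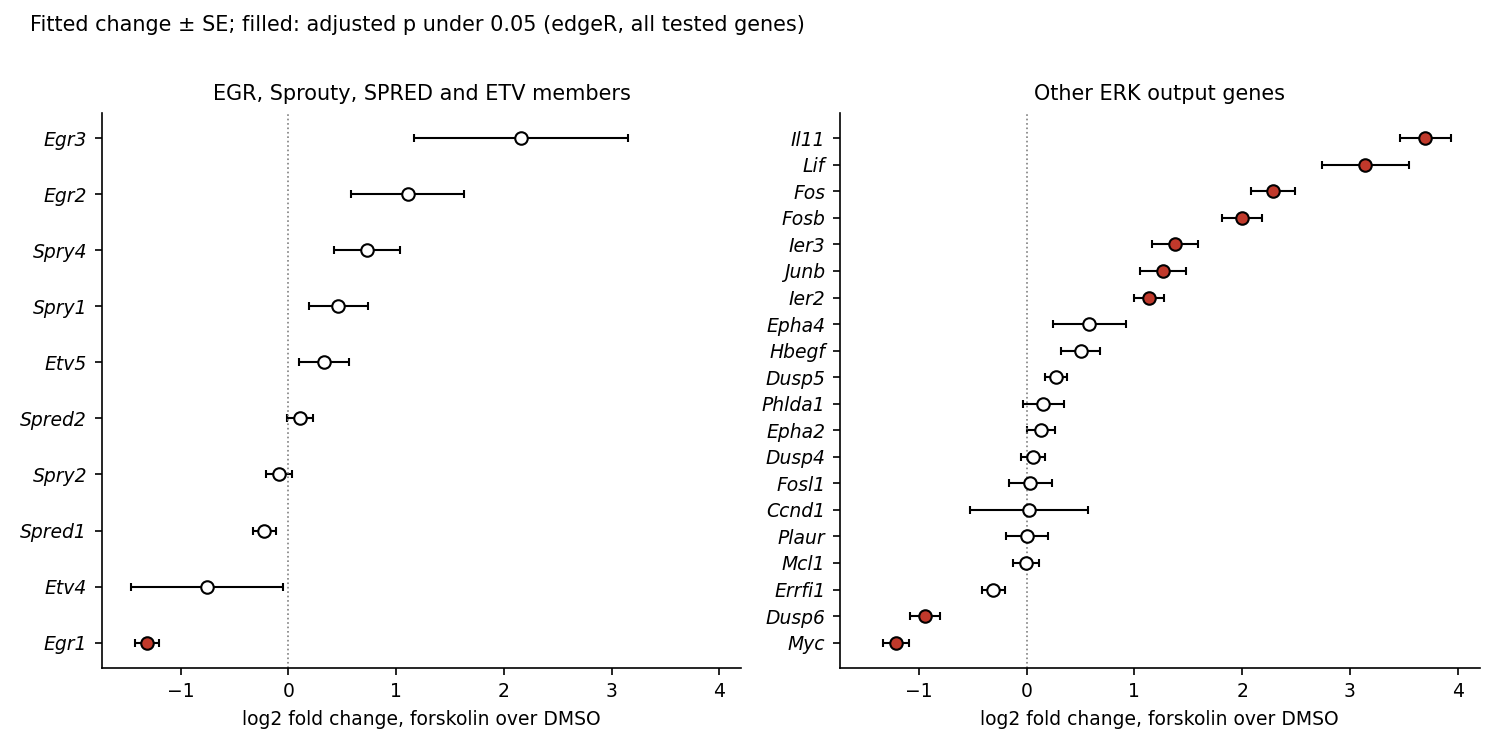
Log2 fold change with its SE, forskolin over DMSO, for the 10 members and for 20 other ERK output genes, each panel ordered by value. Filled points passed an adjusted p of 0.05 over all tested genes. In the right panel 7 genes are filled above 0 and 2 below, Myc at −1.21 and Dusp6 at −0.94; in the left panel Egr1 alone is filled.

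Cofactors and relatives of the members gave few calls. Of 8 tested EGR relatives and cofactors, 0 passed by edgeR, DESeq2 or limma-voom, and 3 had an unadjusted p under 0.05, all lower. Without both C libraries edgeR called these 3 lower, Srf (−0.29, adjusted p = 0.0378), Elk3 (−0.48, 0.00494) and Mkl1 (−0.53, 0.0447). Limma-voom with sample quality weights also called Elk3 (−0.45, adjusted p = 0.0161). With all libraries Srf, the serum response factor gene, was at −0.34 ± 0.11 (edgeR adjusted p = 0.223). Elk4, which encodes a ternary complex factor, was at −0.0018 ± 0.12 (adjusted p = 0.998). Of 9 relatives and partners of Sprouty and SPRED, 1 rose, the ubiquitin ligase gene Siah2 (0.76 ± 0.15, edgeR adjusted p = 0.02), which missed the threshold when forskolin A (adjusted p = 0.101), forskolin B (0.146), DMSO A (0.0754) or DMSO B (0.105) was left out, and when only library sizes were used for scaling (0.051). Cblb, a ubiquitin ligase gene of the CBL family named after its values were seen, was at −0.67 and did not pass by edgeR (adjusted p = 0.106), but was called lower by DESeq2 (adjusted p = 0.0365), by limma-voom (0.0276), with sample quality weights (0.00292) and without both C libraries (0.00262). Nf1, the gene of the neurofibromin that SPREDs recruit, was at −0.29 ± 0.15 (adjusted p = 0.492), and the adaptor gene Grb2 at −0.12 ± 0.13 (adjusted p = 0.847). Of 7 PEA3 relatives and regulators, 0 passed by edgeR, DESeq2 or limma-voom, and 2 had an unadjusted p under 0.05, both lower. Cic, the Capicua gene, also named after its values were seen, was called lower with sample quality weights (−0.56, adjusted p = 0.00696) and without both C libraries (−0.64, adjusted p = 3.77e-04). Atxn1l, a partner of Capicua, a repressor of ETS genes, was at −0.20 ± 0.11 (adjusted p = 0.561), and Dcaf1 at −0.46 ± 0.15 (adjusted p = 0.22). Spry3 had no count in any library, and Egr4 had none with forskolin.

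Of 24 genes of the RAS to ERK cascade itself, 1 rose and 23 did not pass. The gene that rose was Mknk2, a kinase that ERK activates and that phosphorylates the translation factor eIF4E, at 311 ± 17.4 CPM with forskolin and 160 ± 20.1 CPM with DMSO (SD, n = 3 each; log2 fold change 0.96 ± 0.12, edgeR adjusted p = 0.00117). Ptpn11, the SHP2 phosphatase gene, was at −0.07 ± 0.11 (adjusted p = 0.897) and Rras2 at −0.28 ± 0.10 (adjusted p = 0.237). The median of the list was 0.02. Of 13 tested genes reported as EGR1 targets, 3 rose and 0 fell by edgeR, DESeq2 and limma-voom, with 0 lower at an unadjusted p of 0.05, and the median was 0.34. They were Vegfa (1.42 ± 0.12), Gdf15 (0.95 ± 0.15), a stress-induced cytokine, and Tgfb1 (0.62 ± 0.10). Tgfb1 missed the threshold when forskolin A (adjusted p = 0.0754), forskolin B (0.0588) or DMSO B (0.0731) was left out. F3, named after its values were seen, was at 0.69 ± 0.22 (edgeR adjusted p = 0.202). It was called higher without both C libraries (0.61, adjusted p = 2.15e-04), with no filter (4.32e-04) and with sample quality weights (0.00646). Without both C libraries 14 targets were tested, of which 6 were higher and 2 lower at an unadjusted p of 0.05. In that fit 4 were called higher and 0 lower.

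Likeness to Egr1 was measured as the root mean square difference of log2 CPM over the 6 libraries, each gene centred on its own mean, among genes of at least 4 CPM on average. The nearest genes were Amotl2, which encodes an angiomotin that binds YAP, at 0.12, Cttnbp2nl at 0.14 and Ccdc71l at 0.14 on the log2 scale. Cttnbp2nl averaged 85.4 CPM with forskolin and 209 CPM with DMSO (log2 fold change −1.29 ± 0.11, edgeR adjusted p = 1.38e-04), and Ccdc71l 52.1 CPM with forskolin and 113 CPM with DMSO (−1.12 ± 0.13, adjusted p = 8.39e-04). A small difference says that the 6 values ran alike, and nothing more.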

How the data were processed

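Polyadenylated RNA of 6 libraries was sequenced after a library kit that does not mark strand. The submitters' processing notes name STAR, HOMER and the mm10 build; the sources used here give no versions, counting rule or annotation release. What the authors deposited are expected counts per gene over exons, without adjustment and in steps of 0.5, which were rounded to whole numbers before any count test; CPM values use the deposited counts. Depth was 2770628 to 10607997 counts per library, so that 3 counts, the floor used, equal 0.279 to 1.17 CPM on TMM-scaled library sizes. A floor covers counting error only: without molecular identifiers, reads may be copies of 1 molecule.

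Genes were kept by filterByExpr (12233 of 24940), scaled by TMM and compared between 3 forskolin and 3 DMSO libraries by the quasi-likelihood F test of edgeR 4.0.16 in R 4.3.3, with robust dispersions and Benjamini-Hochberg adjustment over all tested genes. The SE is the size of the log2 fold change over the root of F, and 95% intervals use the moderated degrees of freedom. DESeq2 1.42.0 and limma 3.58.1 (voom) were alternatives, with other scalings, filters, a replicate block and libraries left out. The procedure was tested on simulated data. CPM per kb uses the deposited transcript length.

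The members, 9 gene lists and 6 marker lists were chosen with earlier results of these data known. The members are always named; from each gene list up to 4 called genes by p are named, or the 2 most abundant where fewer than 2 were called. Promoters come from RefSeq (GRCm38.p6), and overlapping genes from GENCODE M21 on the same build. Promoters of the members on chromosome 18 were not searched, and sequences of genes there are not shown. Motifs were searched on both strands, a palindrome counting once.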

Additional observations from a re-analysis of the deposited data

How the results depend on the processing

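Each member kept the sign of its fold change in all 16 other settings. Of 160 member values, 150 stayed on the same side of the threshold and 10 passed it anew, all of Egr2, Egr3 or Spry4. The number of members called, 1 with 0 higher, became 3 with 2 higher with no filter, 4 with 3 higher with sample quality weights or without both C libraries, and lay at 1 to 2, with 0 to 1 higher, when single libraries were left out (Egr3 without DMSO A). The number of genes called, 342 (272 higher, 70 lower), was 620 (463 and 157) with no filter, 553 (409 and 144) by DESeq2, 989 (598 and 391) with sample quality weights and 1229 (738 and 491) without both C libraries; limma-voom called 131 lower. Without single libraries the total ranged over 185 to 485, with 162 to 372 higher and 21 to 113 lower; dropping the forskolin A library gave 189 and forskolin B 207, while leaving out DMSO A gave 203 and DMSO B 185. Some of these settings rest on fewer libraries or on more genes, and why the counts differ was not tested. The share called higher, 79.5%, was 77.5% with library sizes alone, and under the other scalings the median log2 fold change of all genes lay between −0.03 and 0.0060. Nothing in the labels pairs the letters, and the data did not settle it. Same-letter deviations correlated at 0.05, 0.13 and 0.15 for A, B and C, against −0.147 to 0.103 for unlike letters. With the letter as a replicate block, 649 genes (455 higher, 194 lower) and 2 members were called, against 5.31% of all genes, 1 of them higher, Spry4 (0.76, adjusted p = 0.0121); the block also called Spp1 higher (1.30, adjusted p = 0.0235). Not every library correlated best with its own letter. Depth limits Egr3 and Etv4, with 0 to 44 counts in DMSO libraries.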

Other observations

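Upstream of the cascade, receptor tyrosine kinase genes gave 1 call of 16 tested, in the rising direction. Fgfr2, a fibroblast growth factor receptor, averaged 499 ± 32.8 CPM with forskolin and 187 ± 34.8 CPM with DMSO (SD, n = 3 each; log2 fold change 1.41 ± 0.15, edgeR adjusted p = 4.3e-04). Axl, the receptor of Gas6, was at 0.026 ± 0.18 (adjusted p = 0.989) and Fgfr1 at 0.22 ± 0.12 (adjusted p = 0.556).

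Genes that link cAMP to RAS and ERK held 2 that rose among 13 tested and 0 that fell by edgeR, DESeq2 or limma-voom (0 lower at an unadjusted p of 0.05). They were Pde4d, a phosphodiesterase that ERK and protein kinase A both phosphorylate (3.07 ± 0.24, adjusted p = 6.01e-05), and Rgs2 (5.07 ± 0.62, adjusted p = 0.00117), which limits Gq signalling. The median log2 fold change of this list was 0.15. Pde4d was also among the cAMP and CREB target genes used as a check of the treatment.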
